A study of Mus musculus with 9 samples.

Results

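Insulin-producing MIN6 cells were compared between medium with 20 times the standard arginine concentration and standard medium, each after 24 h of culture and in 3 libraries per group. MIN6 is an established mouse pancreatic beta cell line, given in the labels as of C57BL/6 strain, and the comparison takes in 6 of the 9 libraries of the series. The 3 others were grown at 0.1 times the standard arginine concentration and were not compared here. They entered the choice of genes tested, the estimate of the spread between libraries and the removal of GC content and length trends given below. The study asked how deficient and excessive arginine supply changes the transcriptome of these cells, and the doses had been chosen beforehand for cell viability. The members were taken by label alone, so no measured value entered the choice of libraries. Of the 54876 genes listed, 12300 reached 1 FPKM (fragments per kilobase of gene, scaled to the mapped reads of the library) in at least 3 of the 9 libraries and were tested. Nothing in the labels states that the libraries of a group came from separate cultures. The tests therefore set differences against the spread among these libraries alone, and that spread may be technical.

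Arginine is a conditionally essential amino acid. It enters beta cells through cationic amino acid transporters, depolarizes the membrane and promotes insulin release. Inside the cell it feeds urea cycle enzymes, polyamine synthesis, nitric oxide synthesis and protein methylation, and it is sensed by mTORC1, a kinase complex that couples nutrient supply to growth. Entry into S phase is held back by the retinoblastoma family. D-type cyclins with their kinases remove that block, CDK inhibitors such as the products of Cdkn2a and Cdkn2b restore it, and E2F transcription factors then switch on the genes of DNA replication.

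The files gave between 21550637 and 24452040 reads in genes per library, so depth was similar in the 2 groups. Of 8 beta cell markers 7 passed that filter, with Ins2 at 46630 to 53719 FPKM over the 6 libraries. The exception was Slc2a2, the low-affinity glucose transporter, at no more than 0.00773 FPKM in any of them. Of the alpha cell markers, Pou3f4 was at 0, and Gcg, the glucagon gene, was at 23.5 to 29.8 FPKM. The summed alpha cell markers were at 1099 to 1185 FPKM in standard medium and 1088 to 1133 FPKM in high arginine, of which Ttr, a thyroid hormone carrier, held most. The delta, PP and epsilon cell markers summed to 5435 to 6208 FPKM in standard medium and 5722 to 5914 FPKM in high arginine, nearly all of it Sst, the somatostatin gene. None of the 12 stromal or 8 immune markers was tested, their highest values being 0.111 and 0.537 FPKM. Of the 12 acinar and duct markers, 5 were at 0 in all 6 libraries and their sum was 8.48 to 9.50 FPKM in standard medium and 7.06 to 7.36 FPKM in high arginine. Within that sum Spp1, the osteopontin gene, was lower, at 4.42, 5.74 and 5.29 FPKM in standard medium and 3.05, 2.66 and 2.73 FPKM in high arginine. Krt7, a keratin gene and the other marker of this set that was tested, went the other way. It was at 3.57, 3.21 and 3.31 FPKM in standard medium and 3.73, 3.99 and 4.01 FPKM in high arginine. Because bulk RNA was sequenced, a smaller number of expressing cells and less RNA per cell cannot be told apart in any result here.

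The transcriptome moved little. Over all genes tested, the median log2 change from standard to high arginine was 0.014, the 5th and 95th percentiles were -0.23 and 0.22, and 59.7% of genes changed by less than 0.1. Only 113 genes, or 0.92%, had an estimated change of more than 0.5 in either direction. In limma with Benjamini-Hochberg adjustment, 17 genes were higher in high arginine (0.138% of those tested) and 21 were lower (0.171%), which is 0.309% in either direction at an adjusted p under 0.05. The share of higher genes among the calls was 44.7%. These calls depend on the spread of the low arginine libraries: with only the 6 compared libraries limma called none, with 1669 genes at an unadjusted p under 0.05, and without low arginine replicate 3 it called 8 higher and 5 lower. Without adjustment, 943 genes were higher (7.67%) and 819 lower (6.66%) at a p under 0.05. All 3 high arginine libraries lay above all 3 standard libraries for 1279 genes (10.4%) and below them for 1001 genes (8.14%). The estimate was above 0 for 6728 genes (54.7%). These shares are the background for the counts of list members below.

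The 6 libraries did not fall cleanly into their 2 groups. On the first principal component, which held 34.9% of the variance, standard replicates 1 and 2 were at 9.3 and 14.8 and high arginine replicates 2 and 3 at -9.34 and -9.94. Standard replicate 3, at -4.0, and high arginine replicate 1, at -0.82, lay between them. The order of standard replicate 3 and high arginine replicate 1 on this axis is the reverse of what their groups would give. Results are therefore given below with each of the 6 libraries left out in turn.

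The called rises covered single genes of several pathways. Chst1 (ENSMUSG00000027221, chr2:92599707-92615250), which encodes a sulfotransferase that acts on keratan chains, was at 10.2, 8.57 and 8.08 FPKM in standard medium and 14.3, 15.3 and 14.1 FPKM in high arginine. Its lowest high arginine library stood well above its highest standard one, and the log2 change was 0.65 (SE 0.079, limma adjusted p = 0.0159). Mat2a (chr6:72432799-72439558) makes S-adenosylmethionine, the methyl donor of the cell, and was at 28.2, 28.7 and 30.9 FPKM against 39.4, 42.7 and 44.3 FPKM, where the log2 change was 0.51 (SE 0.069, adjusted p = 0.0201). It overlaps Particl on the opposite strand, which averaged 132.8 reads per library against 3688 for Mat2a. Slc30a8 (chr15:52295553-52335798) is the transporter that loads zinc into insulin granules. It read 16.2, 16.7 and 17.2 FPKM in standard medium and 21.5, 22.2 and 23.3 FPKM in high arginine, with a log2 change of 0.40 (SE 0.053, adjusted p = 0.0201). Values within each group were tight for this gene, the 2 SDs being 0.511 and 0.887 FPKM.

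Other rises joined cell cycle and beta cell genes. Ccnd2, the D-type cyclin of beta cell growth, was at 14.7, 16.3 and 15.5 FPKM in standard medium and 20.7, 20.2 and 19.6 FPKM in high arginine (log2 change 0.36, SE 0.060, adjusted p = 0.0437). E2f2, one of the activating E2F factors, went from 16.9, 16.0 and 15.6 FPKM to 21.3, 21.7 and 21.7 FPKM (log2 change 0.40, SE 0.067, adjusted p = 0.0437). Fen1, the nuclease that trims Okazaki fragments, was at 14.7, 14.2 and 13.1 FPKM against 17.8, 19.5 and 20.0 FPKM (log2 change 0.42, SE 0.063, adjusted p = 0.0306). Fen1 overlaps Tmem258 on the opposite strand, which averaged 3053 reads per library against 922 for Fen1, and no source used here states whether strand was used in counting. Scgn, a calcium-binding protein of secretory cells, Ddit4l, an mTORC1 inhibitor, and Lpcat1, a lysophospholipid acyltransferase, rose by 0.57, 0.41 and 0.38 on the log2 scale. Mylpf (0.44), Zfp185 (0.37) and Tox3 (0.37) complete the 12 rises that were named by the rule for leading genes.

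Cdkn2b led the falls. Cdkn2b (ENSMUSG00000073802, chr4:89306299-89311039) encodes p15INK4b, an inhibitor of the kinases that pair with D-type cyclins. Its values were 16.9, 18.4 and 19.1 FPKM in standard medium and 12.3, 11.7 and 11.7 FPKM in high arginine, giving -0.57 as the log2 change (SE 0.068, limma adjusted p = 0.0159). Trappc6a, a subunit of a vesicle tethering complex, was at 14.5, 14.5 and 12.1 FPKM against 10.2, 8.23 and 8.33 FPKM (log2 change -0.57, adjusted p = 0.0403). Its standard replicate 3 lay nearer to the high arginine values than the other 2 did, though the groups did not overlap. The same was true of Eno3, the muscle form of enolase, at 31.5, 34.1 and 28.1 FPKM against 22.9, 23.2 and 23.0 FPKM (log2 change -0.42, adjusted p = 0.0403).

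Both cold-inducible RNA-binding proteins, which bind and stabilize transcripts when cells are cooled, fell together. Rbm3 (chrX:8138975-8145880) was at 39.7, 42.6 and 44.5 FPKM in standard medium and 28.3, 31.7 and 32.2 FPKM in high arginine, giving -0.45 as the log2 change (SE 0.075, limma adjusted p = 0.0437). Cirbp (chr10:80165985-80172786) was at 29.1, 28.8 and 26.3 FPKM against 20.7, 21.8 and 19.8 FPKM, giving -0.42 as the log2 change (SE 0.058, adjusted p = 0.0201). The 2 other genes on the list of cold-responsive genes did not follow, with estimates of 0.12 for Rtn3 and -0.03 for Rbmx. Snap25, the membrane SNARE of granule fusion, was at 18.2, 18.9 and 20.4 FPKM against 13.8, 14.3 and 14.6 FPKM (log2 change -0.40, adjusted p = 0.0239). S100a11, a calcium-binding protein, fell by 0.43 on the log2 scale, from 28.6, 30.2 and 25.3 FPKM to 20.5, 20.2 and 20.7 FPKM. Scrn2 (-0.46), Nipsnap2 (-0.42), Cyb5r1 (-0.39) and Naxd (-0.34) make up the rest of the 11 named falls. Naxd overlaps Cars2 on the opposite strand.

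**Figure D1:**
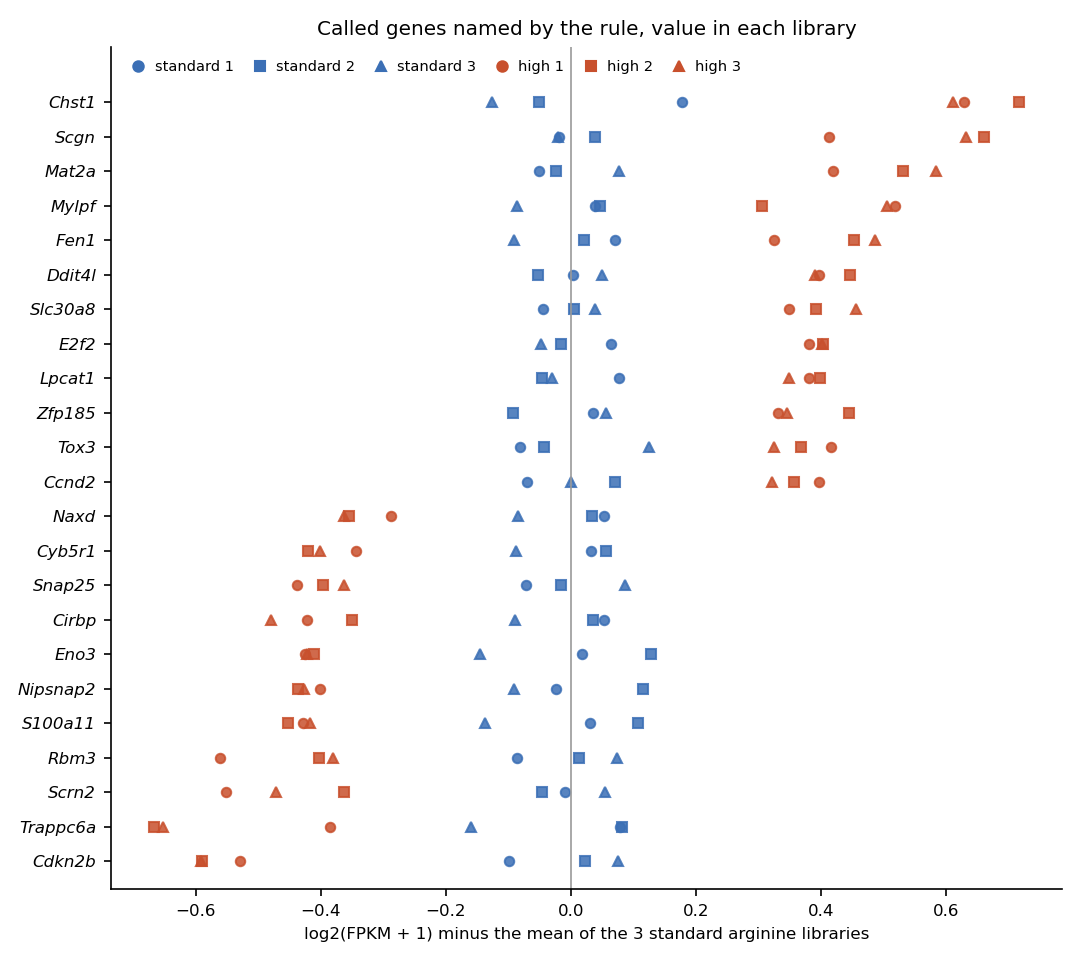
Value of each named called gene in each library, as log2(FPKM + 1) minus the mean of the 3 standard arginine libraries, with standard libraries in one colour and high arginine libraries in the other. In all 23 genes the 3 high arginine points lie on one side of the 3 standard points, and no change is larger than 0.65 in size.

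The remaining 15 called genes had low levels or no full gene name. The following were picked out after their values were seen. Pax4, a transcription factor of beta cell development, was at 3.17, 3.27 and 3.39 FPKM in standard medium and 4.79, 4.66 and 5.44 FPKM in high arginine (log2 change 0.48, limma adjusted p = 0.0313). Nptx1, a secreted pentraxin, was at 2.48, 2.31 and 2.45 FPKM against 3.66, 3.64 and 3.73 FPKM (log2 change 0.46, adjusted p = 0.0159). Mir7682 was listed at 0 in all 3 standard libraries, and in high arginine it averaged 4 reads per library, so no fold is given for it.

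Leaving out single libraries removed most calls, while the estimates of the called genes moved little. In limma with Benjamini-Hochberg adjustment, 6 genes were called higher and 4 lower without standard replicate 1, none without standard replicate 2, and 26 higher and 35 lower without standard replicate 3. On the other side, 9 were called higher and 11 lower without high arginine replicate 1, 1 higher and none lower without replicate 2, and none without replicate 3. The fits without a call still had 1209 (without standard replicate 2) and 1197 (without high arginine replicate 3) genes at an unadjusted p under 0.05, and that without high arginine replicate 2 had 1094. Every one of the 38 called genes kept its direction and an unadjusted p under 0.05 in all 6 of these fits, the largest p per gene running from 2.04e-05 to 0.00102. These fits share most of their libraries with the fit that chose the genes, so this is not independent support. The adjusted calls of the 38 genes survived less well. The call was kept in none of the 6 fits for 8 genes, in 1 for 17, in 2 for 6, in 3 for 6 and in 4 for 1. That last gene was Mir7682.

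Among named genes, Cdkn2b and Chst1 were the most resistant, with calls in 3 of the 6 fits each. The estimate for Cdkn2b ran from -0.62 to -0.53 and its largest unadjusted p was 5.29e-05 (limma). Chst1 ran from 0.59 to 0.74, with 5.91e-05 as its largest p. Slc30a8 (0.37 to 0.42), Mat2a (0.48 to 0.56), Cirbp (-0.46 to -0.39) and Snap25 (-0.44 to -0.36) followed in order of that p. E2f2 (0.37 to 0.43), Ccnd2 (0.32 to 0.39) and Rbm3 (-0.49 to -0.39) were called in none of the 6 fits, and kept an unadjusted p under 0.05 in each of them.

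Over the whole table, 335 genes were higher (2.72%) and 323 lower (2.63%) with an unadjusted limma p under 0.05 in every one of the 6 left-out fits. Their median absolute log2 change was 0.281, against 0.080 for all genes tested. Selection by p in the same libraries favours larger changes, so this contrast follows from the choice of genes. These 658 genes are those of the 1762 at p under 0.05 that stayed there whichever of the 6 libraries was left out.

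Coordinated shifts were then read from 43 gene lists, each described by counts, by its median and by its mean deviation in each library from the mean of the 6. Of the 42 lists with at least 10 tested members, 24 kept the sign of their median in all 6 left-out fits. In 7 of the 42 lists, the 3 high arginine libraries all lay on one side of the 3 standard libraries: DNA replication, mitosis, G1/S control, beta cell identity, methionine and folate cycle, zinc handling and immediate early genes. These lists share members, such as Slc30a8 in zinc handling and beta cell identity, and Tyms in replication and the methionine and folate cycle. Among single genes tested, the groups did not overlap for 10.4% in the higher and 8.14% in the lower direction. Whether lists separated more often than single genes was not tested. The lists were chosen with earlier results of these data known, so the list results below are descriptions and not independent support for the single genes.

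**Figure D2:**
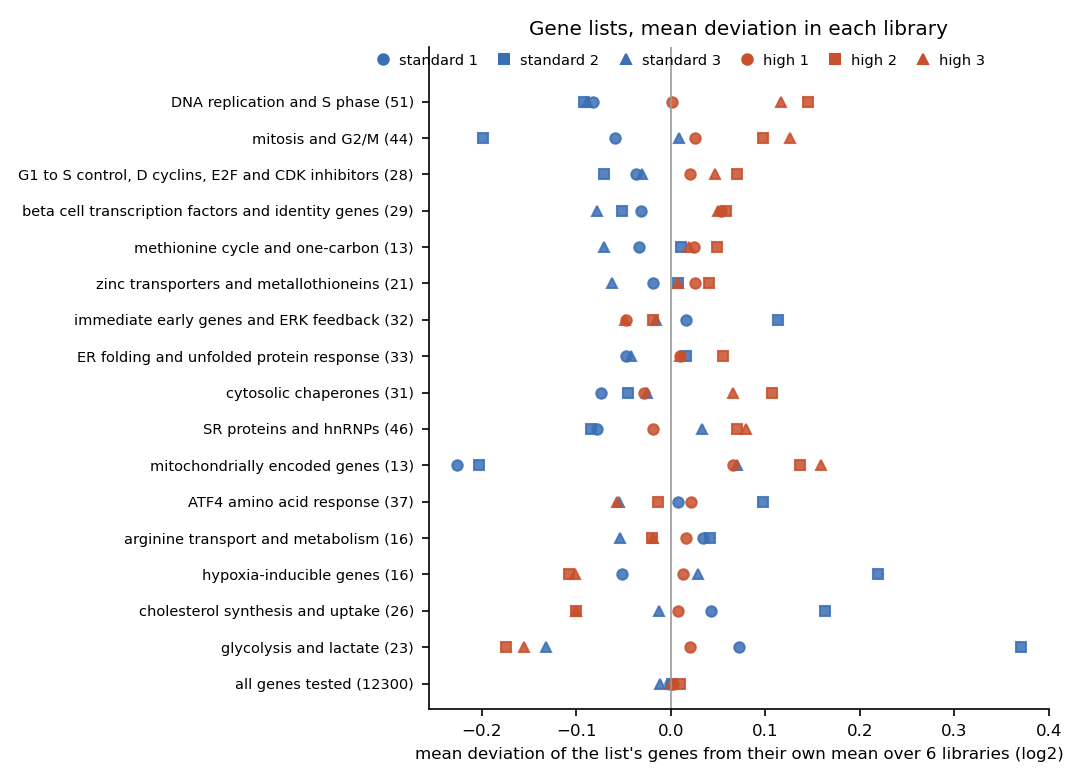
Mean deviation of each list's genes from their own mean over the 6 libraries (log2), 1 point per library. For DNA replication the standard libraries sit at -0.082, -0.092 and -0.089 and the high arginine libraries at 0.001, 0.145 and 0.117, whereas for glycolysis standard replicate 2 stands alone at 0.371.

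DNA replication genes lay above 0 almost throughout. Of the 51 tested members, 50 had an estimate above 0, and for 26 of them all 3 high arginine libraries lay above all 3 standard ones, with none the other way. Of the 51, 26 had an unadjusted limma p under 0.05 in the higher direction, 16 kept it in all 6 left-out fits and 1, Fen1, was called after adjustment. The median log2 change was 0.15 beside 0.014 for all genes. High arginine replicate 1 was much closer to the standard libraries than its 2 companions, at 0.001 against 0.145 and 0.117. The median was 0.20 without that library and 0.13 without high arginine replicate 2.

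By role, the shift was broad. Origin licensing genes, which load the helicase onto DNA, were above 0 in 11 of 11, with a median of 0.12. Cdt1, a loader of that helicase, was at 32.4, 32.1 and 28.5 FPKM in standard medium and 36.5, 38.3 and 37.0 FPKM in high arginine (log2 change 0.26, limma adjusted p = 0.121). Mcm4, a helicase subunit, was at 36.3, 37.2 and 38.6 FPKM against 42.1, 47.8 and 45.9 FPKM (log2 change 0.27, adjusted p = 0.0909). Helicase activation and fork genes had the highest median, 0.23, with 10 of 10 above 0 and 6 without overlap. In that group, Mcm10 was at 6.77, 7.52 and 7.75 FPKM against 8.45, 10.3 and 9.32 FPKM (log2 change 0.31, adjusted p = 0.121). Clspn, the checkpoint adaptor claspin, had an estimate of 0.27 and Cdc45, a helicase cofactor, 0.22.

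Polymerases and primase were above 0 in 9 of 9, with a median of 0.16. Pole, the catalytic subunit of the leading strand polymerase, missed the threshold narrowly at 8.98, 9.16 and 8.80 FPKM against 11.2, 11.8 and 11.1 FPKM (log2 change 0.31, limma adjusted p = 0.0509). Clamp, clamp loader, lagging strand and single-strand binding genes had 10 of 11 above 0. The exception was Rfc2, a clamp loader subunit, at -0.02. Pcna, the sliding clamp, was at 263, 262 and 294 FPKM against 261, 339 and 329 FPKM, where the first high arginine library fell below all 3 standard ones. Nucleotide supply genes were above 0 in 6 of 6 with a median of 0.20. Tk1, thymidine kinase, was at 15.7, 14.0 and 13.4 FPKM against 17.2, 18.3 and 18.5 FPKM, and Tyms, thymidylate synthase, at 20.9, 20.3 and 21.0 FPKM against 22.6, 27.9 and 26.3 FPKM. All 4 chromatin and histone supply genes were without overlap, among them Slbp, the histone mRNA stem-loop binding protein, with an estimate of 0.25. Several members (Rfc4, Mcm7, Cdc45, Orc6, Chaf1a, Tk1, Gins2 and Rfc5 among them) overlap a gene on the opposite strand and carry the same uncertainty as Fen1.

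**Figure D3:**
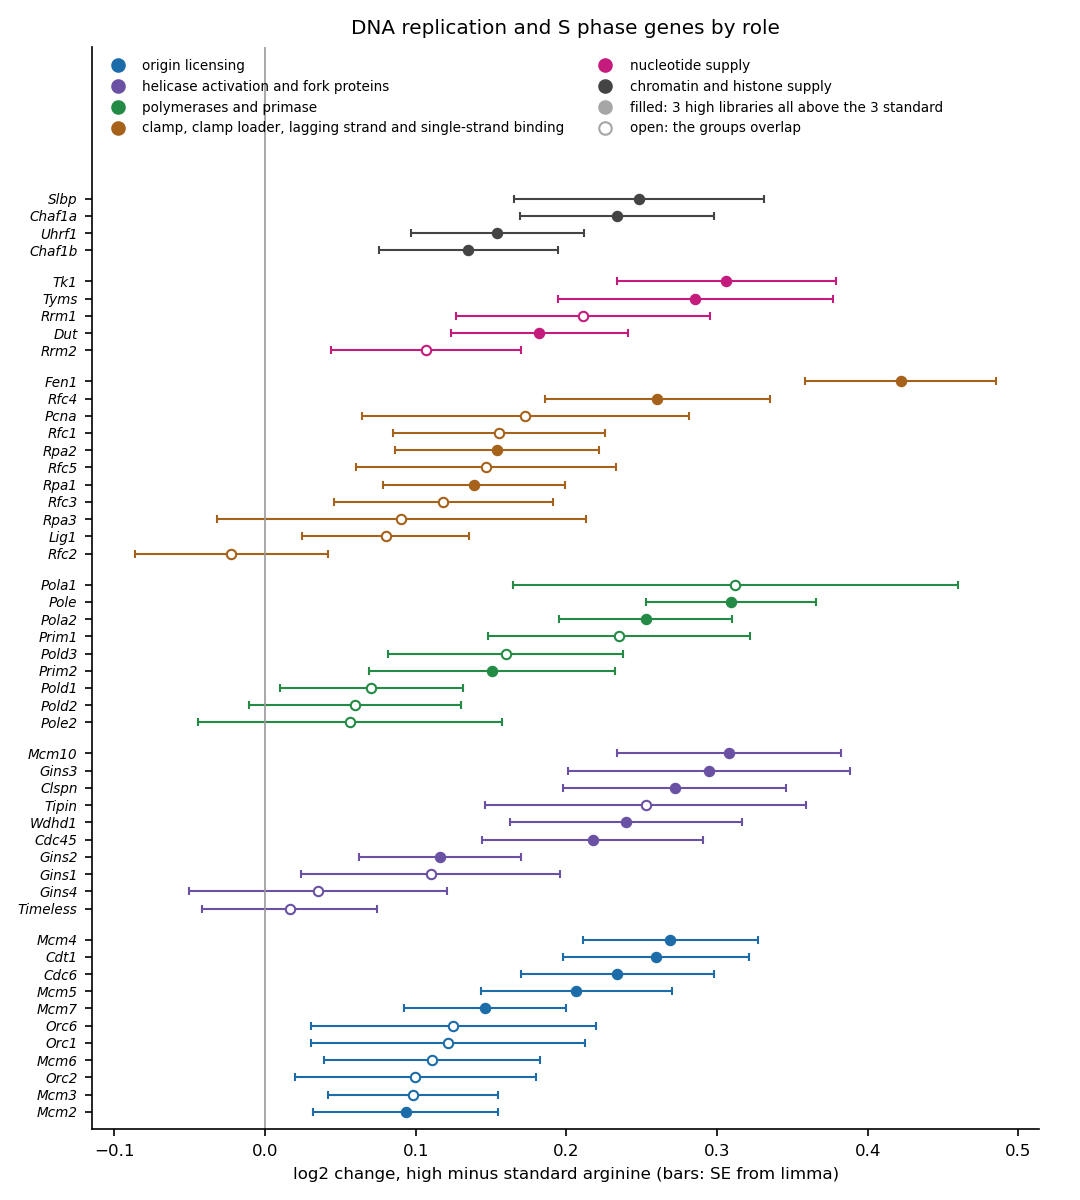
Log2 change from standard to high arginine with its SE for 50 of the 51 tested DNA replication genes, coloured by role. Filled points mark the 26 genes whose 3 high arginine libraries all lie above the 3 standard ones, and only Rfc2 lies below 0.

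Promoter sequence was read because the members of this list lay to one side and E2f2 was among the calls. The E2F forms TTTCCCGC, TTTGGCGC, TTTCGCGC and TTTGCCGC were searched on both strands from 250 bases before to 50 bases after each RefSeq start site (GRCm38.p6), counting overlapping forms separately. At least 1 form was found for 16 of 42 matched replication genes (38.1%), 9 of 22 G1/S control genes (40.9%) and 3 of 37 mitosis genes (8.11%). The share over all tested genes that matched was 454 of 8799 (5.16%), and it was 2.6% of the 27025 genes in the promoter table. The shares of the lists follow from sequence and membership, and the arginine values did not enter them. List members that changed were not compared with members that did not, and a part of E2F in the shift was not tested. No form was found for the 20 matched beta cell identity genes or the 18 matched cholesterol genes, which says only that these letters are not in those windows. Windows to show were sought among the replication genes and the G1/S genes E2f2, E2f7, E2f8 and Cdc25a, not among the other G1/S genes. Of these, 5 had a form in the 250 bases before the start site and a window outside the annotated gene. Those 250 bases are shown for these 5 genes, with the forms in capitals, 5′ to 3′ on the gene's strand. The 2 forms on opposite strands overlap in Mcm5 (chr8:75109259-75109508, plus strand), and Mcm6 (chr1:128359706-128359955, minus strand) has 3 forms. Pola1 (chrX:93632156-93632405, minus strand), Cdc25a (chr9:109875329-109875578, plus strand) and E2f7 (chr10:110745189-110745438, plus strand) have 1 each.
Mcm5: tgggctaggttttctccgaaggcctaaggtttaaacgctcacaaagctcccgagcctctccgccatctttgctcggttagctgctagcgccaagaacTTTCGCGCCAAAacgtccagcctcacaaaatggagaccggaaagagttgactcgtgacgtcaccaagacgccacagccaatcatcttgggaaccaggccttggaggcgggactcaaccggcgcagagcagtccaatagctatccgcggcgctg
Mcm6: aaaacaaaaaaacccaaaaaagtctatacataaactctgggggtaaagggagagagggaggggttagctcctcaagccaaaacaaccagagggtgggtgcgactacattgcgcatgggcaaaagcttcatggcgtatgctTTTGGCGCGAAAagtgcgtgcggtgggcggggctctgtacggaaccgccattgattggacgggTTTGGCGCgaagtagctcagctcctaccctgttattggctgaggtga
Pola1: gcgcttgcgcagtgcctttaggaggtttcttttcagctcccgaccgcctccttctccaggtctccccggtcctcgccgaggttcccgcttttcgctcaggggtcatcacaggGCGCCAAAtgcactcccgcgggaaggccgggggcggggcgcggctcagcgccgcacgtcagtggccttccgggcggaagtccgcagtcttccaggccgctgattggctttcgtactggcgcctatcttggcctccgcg
Cdc25a: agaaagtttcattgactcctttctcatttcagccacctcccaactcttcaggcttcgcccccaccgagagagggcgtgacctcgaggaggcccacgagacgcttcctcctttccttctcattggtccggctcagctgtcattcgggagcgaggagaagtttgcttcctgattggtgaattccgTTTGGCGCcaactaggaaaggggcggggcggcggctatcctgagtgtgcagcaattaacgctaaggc
E2f7: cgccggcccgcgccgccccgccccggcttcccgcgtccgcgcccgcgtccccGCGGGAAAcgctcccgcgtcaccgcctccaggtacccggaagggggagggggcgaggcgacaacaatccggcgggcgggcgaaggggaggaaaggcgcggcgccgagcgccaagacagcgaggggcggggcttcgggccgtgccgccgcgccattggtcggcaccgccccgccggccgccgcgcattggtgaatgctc

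The levels of these 5 genes differed widely and so did their separation. Mcm5, a helicase subunit, was at 93.6, 89.9 and 81.0 FPKM in standard medium and 105, 103 and 97.7 FPKM in high arginine (log2 change 0.21, limma adjusted p = 0.194), and Mcm6, another, overlapped between groups with an estimate of 0.11. Pola1, the catalytic subunit of the priming polymerase, also overlapped, at 3.14, 2.56 and 4.30 FPKM against 3.55, 4.85 and 4.62 FPKM. Cdc25a, a phosphatase that activates S phase kinases, was at 11.9, 12.1 and 11.6 FPKM against 13.7, 14.4 and 13.4 FPKM. E2f7, a repressor E2F, was at 6.87, 5.96 and 6.74 FPKM against 7.55, 7.81 and 7.83 FPKM. The groups did not overlap for 3 of these 5 genes.

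Among G1/S control genes, Ccnd2 and E2f2 rose and Cdkn2b fell, as given above. Of the 28 tested members, 24 were above 0, 9 were higher and 2 lower without overlap, and the median was 0.098, running from 0.085 to 0.101 over the left-out fits. Mean deviations were -0.037, -0.071 and -0.030 in the standard libraries and 0.020, 0.071 and 0.047 in the high arginine libraries. Cdkn2a, which shares a locus with Cdkn2b and encodes p16INK4a and p19ARF, was the other member that was lower without overlap, at 134, 141 and 129 FPKM against 114, 115 and 109 FPKM (log2 change -0.25, limma adjusted p = 0.0991). E2f8, like E2f7 a repressor, was at 16.5, 15.4 and 17.1 FPKM against 21.1, 21.7 and 19.9 FPKM (log2 change 0.34, adjusted p = 0.0509). E2f1 (0.11), Cdkn1a (0.02) and Myc (0.02) had smaller estimates.

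Mitosis genes had a median of 0.17, but their libraries were less orderly. Of the 44 tested, 41 were above 0, 12 were higher without overlap, 1 was lower, and 5 kept an unadjusted limma p under 0.05 in all 6 left-out fits. None was called after adjustment, while 13 had an unadjusted p under 0.05. Standard replicate 2 was low for this list, at -0.199 beside -0.059 and 0.009, and the median was 0.13 without it. Aurkb, a kinase of chromosome segregation, was at 32.5, 30.4 and 30.6 FPKM against 35.9, 38.8 and 39.0 FPKM. Top2a, which untangles chromosomes, overlapped at 54.4, 46.6 and 71.7 FPKM against 64.8, 74.7 and 82.5 FPKM. Mki67, the proliferation marker, had an estimate of 0.25 with an unadjusted limma p of 0.176. Pttg1, securin, was the member with lower values, at -0.17.

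Beta cell identity genes lay higher in all 3 high arginine libraries than in any standard one. The list held 29 tested members, of which 23 were above 0, 9 were higher and 1 lower without overlap, and 2 were called (Slc30a8 and Scgn). Mean deviations were -0.031, -0.052 and -0.078 in the standard libraries and 0.053, 0.058 and 0.050 in the high arginine libraries. The median was 0.099 and ran from 0.076 to 0.114 in the left-out fits. Nkx6-1, a transcription factor that keeps beta cells from other islet fates, was at 69.3, 64.2 and 65.3 FPKM against 80.6, 80.1 and 74.8 FPKM (log2 change 0.24, limma adjusted p = 0.113). Mafa, an activator of insulin transcription, was at 261, 261 and 218 FPKM against 297, 292 and 270 FPKM (log2 change 0.22). The incretin receptors had estimates of opposite sign, 0.23 for Glp1r and -0.23 for Gipr, each without overlap between groups. The hormone genes themselves showed little difference, with estimates of -0.01 for Ins1, -0.08 for Ins2 and 0.03 for Iapp.

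Granule and exocytosis genes were mixed. The granule list, with 24 tested members, had a median of -0.001, and its library means overlapped. Scg2, a granin that helps form granules, was nevertheless at 1283, 1400 and 1450 FPKM in standard medium and 1553, 1764 and 1762 FPKM in high arginine (log2 change 0.30, limma adjusted p = 0.125). Sytl4, granuphilin, which docks insulin granules, was at 13.6, 14.9 and 13.6 FPKM against 16.2, 18.3 and 18.5 FPKM (log2 change 0.31, adjusted p = 0.0737). Pcsk1, a proinsulin-cleaving convertase, had an estimate of 0.24 and Chgb, chromogranin B, one of -0.13. Among the 28 exocytosis genes, with a median of 0.015, Snap25 fell. Its vesicle partner Vamp2 was at 49.1, 50.5 and 43.1 FPKM against 44.2, 38.2 and 37.2 FPKM, with 1 high arginine library inside the standard range. The estimate was 0.17 for Syt7, a calcium sensor, 0.18 for Stx3, another SNARE, and 0.22 for Abcc8, the sulfonylurea receptor.

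Arginine and stress pathways were close to the background. Of 16 tested genes of arginine transport and metabolism none was called in limma after adjustment, 2 had an unadjusted p under 0.05 (1 in each direction), and the median was -0.013. Slc7a1, the main cationic amino acid transporter, had an estimate of -0.02, Ass1 and Asl, which make arginine from citrulline, -0.07 and -0.05, and Slc7a2 and Slc7a6, other carriers, 0.13 and 0.15. The exception was Azin2, an antizyme inhibitor, at 2.95, 2.86 and 2.39 FPKM in standard medium and 1.94, 1.54 and 1.98 FPKM in high arginine (log2 change -0.40, limma adjusted p = 0.0909). In polyamine synthesis, with 13 tested genes, Amd1, which makes the aminopropyl donor, had an estimate of 0.31 and Odc1, ornithine decarboxylase, one of -0.15. ATF4 targets, the genes switched on when amino acids run short, had 37 tested members and none called, with 4 higher and 4 lower at an unadjusted limma p under 0.05 and a median of -0.038. Trib3 (-0.01), Asns (0.04) and Ddit3 (-0.05) were near 0, and Slc1a5, a glutamine carrier, was at 12.9, 13.9 and 13.0 FPKM against 10.6, 10.1 and 9.95 FPKM (log2 change -0.35, adjusted p = 0.0509).

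Methionine and folate cycle genes, 13 of them tested, had a median of 0.091. Mat2a was the called member. There were 6 higher without overlap and 1, Mtr, the methionine synthase, was lower, with an estimate of -0.10. In all, 9 members were above 0 and 4 below, and the lowest estimate of the list was -0.27. The median was 0.041 when either standard replicate 2 or high arginine replicate 2 was left out, so its size rests on those libraries while its sign does not. Zinc handling genes had 21 tested members and a median of 0.037. Apart from Slc30a8, 4 were higher without overlap, among them Slc39a8, a zinc importer, with an estimate of 0.18.

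Immediate early genes and the feedback inhibitors of ERK signalling, which switch that cascade off again, lay lower in high arginine. Of 32 tested, 9 were lower and 3 higher without overlap, 7 and 2 had an unadjusted limma p under 0.05, and none was called after adjustment. Nr4a2, an orphan nuclear receptor, was at 8.39, 8.69 and 7.21 FPKM against 5.50, 6.35 and 5.59 FPKM (log2 change -0.42, adjusted p = 0.0647). Dusp6, an ERK phosphatase, was at 30.6, 31.6 and 30.6 FPKM against 23.5, 25.3 and 23.4 FPKM (log2 change -0.35, adjusted p = 0.136). Other inhibitors of the cascade had estimates of -0.20 (Spry2), -0.23 (Spry1), -0.13 (Dusp5) and -0.17 (Dusp4), whereas Jun and Dusp1 had 0.26 and 0.17. The list median was -0.050 with all libraries and -0.004 without standard replicate 2, so as a whole the list was not separate from 0 without that library. Dusp6 itself ran only from -0.38 to -0.33.

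Protein folding genes of the endoplasmic reticulum had a median of 0.064 over 33 tested members, with 10 higher and none lower without overlap. Pdia6, a disulfide isomerase, was at 506, 563 and 534 FPKM in standard medium and 596, 655 and 616 FPKM in high arginine (log2 change 0.22, limma adjusted p = 0.15). Ssr1, a subunit of the translocon-associated complex, was at 42.5, 46.0 and 46.6 FPKM against 52.6, 53.4 and 51.8 FPKM (log2 change 0.22, adjusted p = 0.119). Hspa5, the central chaperone BiP, overlapped, at 461, 491 and 523 FPKM against 492, 587 and 564 FPKM. The list's library means overlapped as well.

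Several further shifts rested wholly or partly on standard replicate 2. Glycolysis genes, 23 tested, had a median of -0.16, which was -0.043 without that library. Their mean deviation was 0.371 in it, against 0.072 and -0.132 in the other standard libraries and 0.020, -0.175 and -0.156 in the high arginine libraries. The glycolysis entry with the lowest estimate, -1.92, was also the lowest of all genes tested, and it enters these means. Hypoxia targets moved from -0.093 to 0.008. Cholesterol synthesis genes, 26 tested, kept their direction, with a median of -0.12 that was -0.075 without that library. Of these genes 3 were above 0, 8 were lower at an unadjusted limma p under 0.05, and 4 were lower without overlap. Some members remained separate. Fam162a, a mitochondrial hypoxia target, was at 208, 287 and 227 FPKM against 198, 175 and 175 FPKM, and Nsdhl, a sterol dehydrogenase, at 54.8, 65.4 and 53.2 FPKM against 50.5, 46.6 and 45.3 FPKM. In both, standard replicate 2 was the highest of the 6 libraries, and without it the estimates became -0.25 and -0.18.

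**Figure D4:**
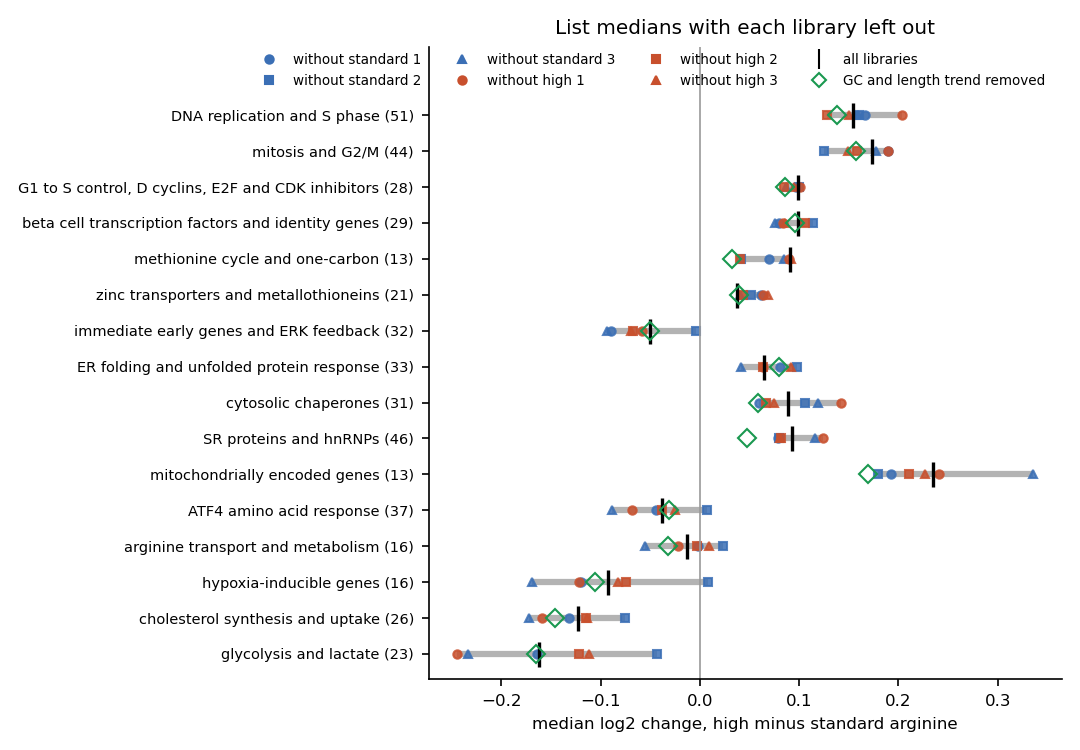
Median log2 change of each list with all libraries and with each of the 6 libraries left out in turn, and after removal of trends with GC content and length. DNA replication stays between 0.13 and 0.20 with a library left out, whereas glycolysis goes to -0.043 and hypoxia to 0.008 without standard replicate 2.

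The base composition of transcripts moved with the libraries. In the quintile of genes with the lowest GC content (22.1 to 45.5%), the median log2 change was 0.070 and 73.3% of genes were above 0. In the quintile with the highest (56.2 to 87.5%), the median was -0.017. Low-GC genes deviated by -0.080, -0.094 and 0.071 in the standard libraries and by -0.029, 0.058 and 0.073 in the high arginine libraries. Standard replicate 3 and high arginine replicate 1 thus lay on the side of the other group. By gene length the medians ran from -0.013 in the shortest quintile to 0.033 in the longest.

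**Figure D5:**
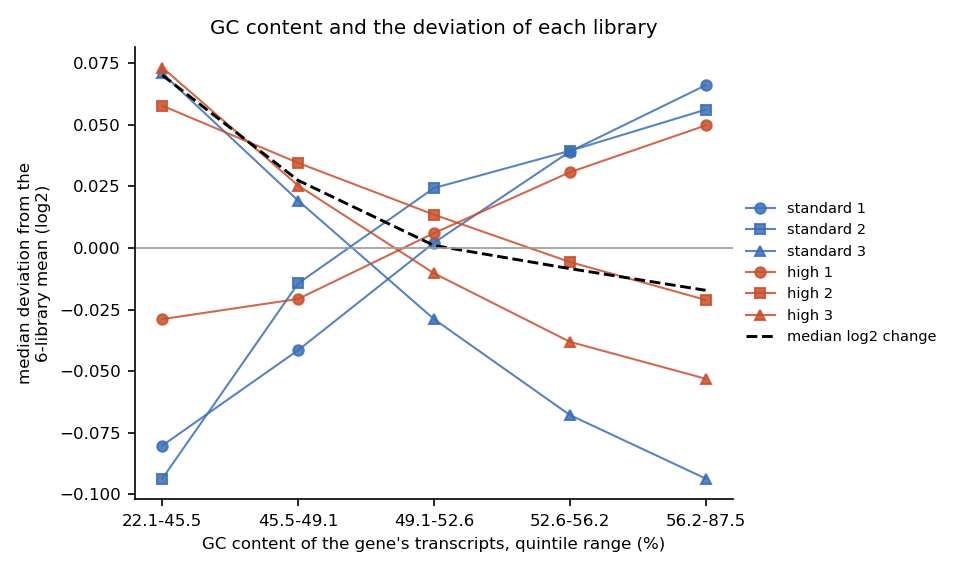
Median deviation of each library from the mean of the 6 (log2) in quintiles of genes by transcript GC content, with the median log2 change as a dashed line. Standard replicates 1 and 2 run from -0.080 and -0.094 at low GC to 0.066 and 0.056 at high GC, standard replicate 3 runs the other way, and the median change goes from 0.070 to -0.017.

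With the trends of GC content and length removed from each library, limma called 137 genes higher (1.11%) and 108 lower (0.878%), so the share of higher genes among the calls was 55.9% rather than 44.7%. Groups did not overlap for 1647 higher genes (13.4%) and 1498 lower genes (12.2%). All 38 genes called before stayed called. For DNA replication the median became 0.14, with 34 of 51 members higher without overlap and 8 called. Beta cell identity went to 0.095 and G1/S control to 0.085. The methionine and folate cycle median dropped to 0.033, although Mat2a itself kept 0.49.

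Library means of the lists changed places as well. With the trends removed, 11 of the 42 lists had groups that did not overlap, beside 13.4% of single genes higher and 12.2% lower. Of these 11 lists, 5 were among the 7 named above. The zinc handling list was no longer separate, with standard replicate 2 at 0.018 above high arginine replicates 1 and 3, and neither was the immediate early list, with standard replicate 1 at -0.022 below high arginine replicates 2 and 3. Cholesterol synthesis was separate only with the trends removed, with a median of -0.15. The margin was small, with standard replicate 3 at 0.0063 and high arginine replicate 1 at 0.0031. The 13 mitochondrially encoded genes, which code for respiratory chain subunits and average 36.8% GC, were all above 0 with a median of 0.24, yet only 2 were without overlap. Standard replicate 3, at 0.070, stood among the high arginine libraries, at 0.066, 0.136 and 0.158. One of the 2 was mt-Nd2, a complex I subunit, at 656, 648 and 735 FPKM against 793, 796 and 808 FPKM. Some of the 13 genes had few reads, with averages per library of 5.7 for mt-Atp8, 40.2 for mt-Nd4l and 72.7 for mt-Atp6. The average was 96809 for mt-Co1. Without standard replicate 3 the median was 0.34. With the trends removed it was 0.17, 4 genes were without overlap, and the library means were separate, at -0.138, -0.057 and -0.040 in standard medium and 0.104, 0.068 and 0.063 in high arginine. Splicing factors (46.1% GC) went from 0.093 to 0.048 and overlapped between groups both before and after. Cytosolic chaperones (49.0% GC) went from 0.089 to 0.058 and were separate only with the trends removed. Whether base composition has a part in these results was not tested.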

How the data were processed

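RNA of the 9 libraries was harvested with Trizol and made into libraries with the NEBNext Ultra Directional kit from 3 ug of total RNA, per the labels' protocols. Per the submitters' processing notes, the tools were CASAVA 1.8, HISAT2 2.0.5 and featureCounts 1.5.0-p3, with mm9 named as build. GENCODE M21, on GRCm38, holds 54409 of the gene IDs, and 98.33% of these have the same start and end there, so coordinates are given as GRCm38. The values are FPKM per gene as deposited by the authors, in 1 table for all 9 libraries.

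Genes with at least 1 FPKM in at least 3 of the 9 libraries were tested on log2(FPKM + 1), with no replicate block, in limma 3.58.1 (R 4.3.3), with all 9 libraries sharing 1 estimate of the spread (6 residual degrees of freedom) and the contrast of high against standard arginine. P-values were adjusted over the 12300 genes by Benjamini-Hochberg, at 0.05. All fold changes are on that scale and understate the change of low genes. The steps of the low values gave whole reads for 100% of values (tolerance 0.01 of a read), from which the depth was taken. The procedure was tested on simulated data. Values of some list members are not reported here. The members and gene lists were chosen with earlier results of these data known. Named genes were up to 15 called rises and 15 called falls with a full symbol, a mean of at least 5 FPKM in the higher group and no overlap, the 3 members of each list with the smallest p, a fixed set, and the 15 genes with the smallest largest p over the 6 left-out fits. Other list members given here were chosen as examples of their role. Alternatives were another pseudocount, other filters, scalings and variance models, a replicate block, removal of GC and length trends by loess (span 0.3), and each library left out. Same-numbered standard and high arginine libraries had correlations of deviations of 0.176, -0.027 and 0.196, so the numbers were not taken as pairs.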

Additional observations from a re-analysis of the deposited data

How the results depend on the processing

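Of 159 named genes under all alternatives, no call reversed, 2997 values kept their call or lack of one, 210 lost it and 115 gained it. Counted over these same values, 14 changed sign with no call. The counts of called genes, 17 higher and 21 lower, moved more. They were 4 and 2 with no filter on low values, 26 higher with a mean of at least 5 FPKM, 46 and 42 with a replicate block, 40 and 34 with voom weights on rebuilt reads, 137 and 108 with GC and length trends removed, and 713 and 610 with array weights in limma. With only the 6 libraries, limma called 0 and 0, with 1669 genes at an unadjusted p under 0.05. With 1 library left out, calls ranged from 0 to 26 higher and from 0 to 35 lower. Genes without overlap ranged from 1584 to 3823 higher and from 1292 to 3729 lower with 1 library left out of either or both groups, where fewer values have to be separated. Lower ones numbered 1592 with no filter and 485 with a mean of at least 5 FPKM, where the number of genes tested differs. The cause of the other moves was not tested.

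The replicate numbers do not pair the samples by the labels or the data, so the replicate block (46 higher, 42 lower) is only an alternative. Not every library correlated best with its own number. Of the list medians over the 47 lists, 1286 values stayed within the spread between libraries and 124 moved. Counted over these same values, 127 took another sign. Depth limits short and low genes: Mir7682 was called with an average of 4 reads per high arginine library.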

Other observations

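Housekeeping machinery gave no shift of note in size. Cytosolic ribosomal protein genes, 78 tested, had a median log2 change of -0.003 from standard to high arginine, with 2 higher and 2 lower without overlap between the groups. Nuclear-encoded respiratory chain genes (74 tested) had a median of 0.007, mitochondrial ribosomal protein genes (76) 0.015 and proteasome subunit genes (35) 0.027. No proteasome gene had groups without overlap or an unadjusted limma p under 0.05. Protein arginine methyltransferases, which use arginine residues as substrates, numbered 10 tested, with a median of -0.016 and 1 lower without overlap.

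Degradation pathways lay slightly below 0. Lysosomal genes, 53 tested, had a median of -0.033, with 5 lower (9.43%) and none higher without overlap. Autophagy genes, 36 tested, had -0.028 with 4 lower (11.1%) and none higher. Over all genes tested, 8.14% were lower and 10.4% higher without overlap, so the shares of lower genes were near the background. Without standard replicate 2 these medians were -0.009 and -0.002. The list of small nucleolar RNA host genes and other long noncoding RNAs (14 tested) had a median of -0.083, and its library means overlapped. Autophagy and this list were separate between groups with GC and length trends removed, where the medians were -0.041 and -0.093. The margins were small. For autophagy, standard replicate 3 was at -0.0001 and high arginine replicate 1 at -0.002. For the noncoding RNA list, standard replicate 1 was at 0.0186 and high arginine replicate 3 at 0.0166. The 138 tested antisense transcripts had a median of -0.061, with 14.5% lower and 5.80% higher without overlap, and it stayed between -0.084 and -0.030 with any 1 library left out. Such transcripts lie opposite another gene, and no source used here states whether strand was used in counting. It is therefore not known whether reads of their partners affect these values.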
